A study of Mus musculus with 2 samples.

Results

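Open chromatin was described at 5 forkhead genes, Foxp1, Foxp2, Foxp4, Foxo1 and Foxo3, out of 21853 protein-coding genes with an annotated coding transcript. The genes were chosen by name with their peaks in these lists already known: Foxp1 was chosen on its count of distal peaks found in both replicates, and the other 4 as relatives of it, so the counts below describe the choice and support nothing beyond it. The data were DNase-seq of the thymus of newborn mice of strain B6NCrl, which maps DNA that the enzyme DNase I can reach in nuclei. There was 1 group of 2 biological replicates, both postnatal day 0, healthy, with males and females pooled, and with no further allele, treatment or agent in the labels. In the labels the donor entry is the same for both and the biosample differs, so the spread between them may be partly technical, and with 1 group there was no condition to compare and no test. Replicate 1 had 154812 peaks and replicate 2 had 139702, each 150 bp wide, and the 5 genes held 228 and 201 of them.

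FOXP and FOXO proteins share the forkhead DNA-binding domain. FOXP1 and its relatives FOXP2 and FOXP4 act mostly as repressors, form dimers with each other, and recruit corepressor complexes; FOXP1 keeps naive T cells quiescent, FOXP4 is expressed in T cells too, and FOXP2 is best known from the brain and lung. FOXO1 and FOXO3 activate genes of survival, cell-cycle arrest and lymphocyte homing, and phosphorylation by the kinase AKT, downstream of PI3K, sends them out of the nucleus.

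A peak was called a promoter peak when its midpoint lay within 1000 bp of the start site of a coding transcript, and distal otherwise. Distal peaks were assigned to the gene with the nearest coding start site within 100 kb. A peak of the first list was called shared when at least 1 bp of it was covered by a peak of the second list. The deposited score of a peak is a whole number from 1 to 150 whose meaning neither the labels nor the files state, and it served to rank peaks within each list. Scores are given below as replicate 1 first and replicate 2 second.

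The sequences of the strongest distal shared peak of each gene, and of the next 2 of Foxp1, are printed first because the description turns on them. They are the plus strand of GRCm38 (mm10) over the peak of replicate 1, in lower case. Capitals mark matches, on either strand, to short words of factors active in lymphocytes and of forkhead factors. The RUNX word was TGTGGT. The ETS words were AGGAAG or else CGGAAG, and the E-box words were CAGCTG or else CACCTG. The TCF/LEF words were CTTTGAA or else CTTTGAT or else CTTTGTT. The forkhead word was TGTTTAC, the GATA word was AGATAA, and the NFAT word was TGGAAA. The AP-1 word was TGANTCA, with N for any base, and the core of the CTCF motif was searched too. Some forms of the CTCF core hold the reverse complement of CACCTG. A match describes these letters and is no evidence that a factor bound.
Foxp1, intron 2, chr6:99385176-99385325: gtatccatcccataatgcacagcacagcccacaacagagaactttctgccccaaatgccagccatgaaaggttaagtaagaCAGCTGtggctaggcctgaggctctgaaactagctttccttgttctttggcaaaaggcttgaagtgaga
Foxp1, intron 1, chr6:99485196-99485345: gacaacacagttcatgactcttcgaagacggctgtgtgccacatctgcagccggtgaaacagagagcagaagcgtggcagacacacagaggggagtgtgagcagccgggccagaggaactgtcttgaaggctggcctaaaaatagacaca
Foxp1, at its first annotated base, chr6:99522616-99522765: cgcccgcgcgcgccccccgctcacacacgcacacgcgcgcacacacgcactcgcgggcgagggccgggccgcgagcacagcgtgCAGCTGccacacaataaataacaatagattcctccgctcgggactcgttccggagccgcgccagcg
Foxp2, upstream, chr6:14839016-14839165: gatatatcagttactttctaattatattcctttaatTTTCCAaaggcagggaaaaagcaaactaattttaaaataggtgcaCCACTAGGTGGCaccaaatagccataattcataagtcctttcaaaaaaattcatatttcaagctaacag
Foxp4, intron 3, chr17:47887676-47887825: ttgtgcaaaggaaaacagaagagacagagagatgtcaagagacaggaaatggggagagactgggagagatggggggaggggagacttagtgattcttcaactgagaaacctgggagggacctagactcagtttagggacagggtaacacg
Foxo1, upstream, chr3:52262536-52262685: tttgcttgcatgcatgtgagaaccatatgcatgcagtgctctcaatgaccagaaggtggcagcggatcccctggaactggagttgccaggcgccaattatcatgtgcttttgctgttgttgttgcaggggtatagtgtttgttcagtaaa
Foxo3, upstream, chr10:42277696-42277845: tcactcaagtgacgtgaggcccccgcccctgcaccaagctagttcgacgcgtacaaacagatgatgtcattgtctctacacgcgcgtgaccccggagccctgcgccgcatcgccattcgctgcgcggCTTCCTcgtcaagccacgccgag
The Foxp1 peak in the second intron and the one at the first annotated base each held CAGCTG. The Foxp2 peak held an NFAT word and the CTCF core, and the Foxo3 peak an ETS word. None of the words was in the peaks printed for Foxp4 and Foxo1, nor in the Foxp1 peak of the first intron.

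The 2 distal shared peaks of these genes that held the forkhead word are shown because they lie at genes of forkhead factors.
Foxp1, upstream, chr6:99522916-99523065: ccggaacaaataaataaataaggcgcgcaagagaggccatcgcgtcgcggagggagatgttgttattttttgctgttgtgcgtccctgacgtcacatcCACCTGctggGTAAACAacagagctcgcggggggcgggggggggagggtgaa
Foxo3, intron 2, chr10:42269876-42270025: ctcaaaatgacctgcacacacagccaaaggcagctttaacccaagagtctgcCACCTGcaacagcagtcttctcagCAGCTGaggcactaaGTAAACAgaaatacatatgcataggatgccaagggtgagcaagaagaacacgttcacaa
The Foxp1 peak also held CACCTG, and the Foxo3 peak both E-box words. The forkhead word was in 1.49% of the genes' distal shared peaks and in 2.12% of the other 78585 distal shared peaks.

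The strongest promoter shared peak of each gene that had one is printed only for the part outside annotated exons, with capitals for the dinucleotide CG, which is dense at CpG island promoters.
Foxp1, internal start site, chr6:99096206-99096325: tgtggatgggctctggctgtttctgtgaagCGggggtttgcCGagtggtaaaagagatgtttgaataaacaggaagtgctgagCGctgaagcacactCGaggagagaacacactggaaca
Foxp4, chr17:47924696-47924845: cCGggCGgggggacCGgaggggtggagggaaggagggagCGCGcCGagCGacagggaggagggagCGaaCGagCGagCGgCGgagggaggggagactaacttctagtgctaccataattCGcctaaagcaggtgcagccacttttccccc
Foxo1, chr3:52268276-52268335: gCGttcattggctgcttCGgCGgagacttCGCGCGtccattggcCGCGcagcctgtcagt
Foxo3, chr10:42276756-42276845: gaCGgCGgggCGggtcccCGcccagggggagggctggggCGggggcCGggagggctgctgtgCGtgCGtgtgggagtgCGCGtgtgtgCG
The Foxp1 stretch of 120 bp held 4 CG dinucleotides. The stretches of Foxp4, Foxo1 and Foxo3, of 150, 60 and 90 bp, held 13, 8 and 11. Foxp2 had no promoter peak.

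Promoter peaks in both replicates were found for 4 of the 5 genes, against 62.2% of all protein-coding genes, and Foxp2 was the exception. All 5 had a distal shared peak, against 65.0% of genes. The number of distal shared peaks was 74 for Foxp1, 24 for Foxo1, 22 for Foxo3, 13 for Foxp4 and 1 for Foxp2, beside a median of 1 over all genes and a 99th percentile of 24. In a whole organ, a site open in fewer cells and a site less open in each cell cannot be told apart. Promoter peaks in both replicates were counted at listed marker genes of cell types, chosen with results of these data known. They were present at all 12 thymocyte, 3 of 7 B cell, 4 of 6 myeloid and 2 of 7 thymic epithelium genes. They were also present at 2 of 5 endothelium, 3 of 5 mesenchyme, 2 of 5 erythroid and 4 of 5 neuron genes. With 62.2% of all genes and 4 of 5 neuron genes called, these counts cannot verify the label thymus. The part of these cell types in the values below was not tested. Foxn1, the forkhead gene that defines thymic epithelium, had no promoter peak in either. The labels and files give no read totals, so the depth behind the lists is unknown.

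The counts were also set against the length of sequence around each gene. Territory here means the sequence within 100 kb that is nearer to the gene's start sites than to any other coding start site. Foxp1 had 666.0 kb, Foxp2 385 kb, Foxo3 218 kb, Foxo1 182 kb and Foxp4 102 kb. Per 100 kb of territory, distal shared peaks numbered 13.2 for Foxo1, 12.8 for Foxp4, 11.1 for Foxp1, 10.1 for Foxo3 and 0.259 for Foxp2. Over the 5967 genes with at least 100 kb of territory the median was 2.15 and the 90th percentile 9.64. Foxp1 thus ranked 2 by count and 434 by density, and the densities of Foxp1, Foxp4, Foxo1 and Foxo3 lay within 10.1 to 13.2, above that percentile. Foxp2 differed from Foxp1 in count more than in length: the genes span 541 kb and 597 kb. Among the 230 protein-coding genes of at least 500 kb, the median was 2 distal shared peaks, Foxp1 ranked 1, and 105 had no more than the 1 of Foxp2.

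**Figure D1:**
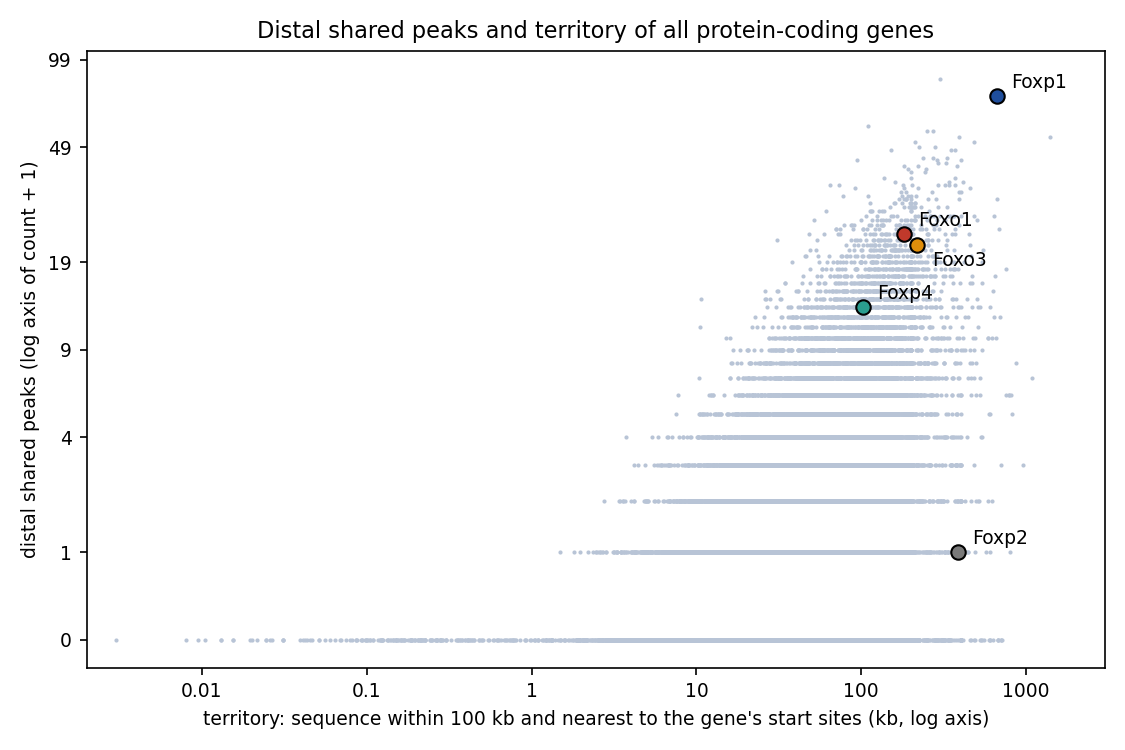
Territory (x axis, kb, log scale) and distal shared peaks (y axis, log scale of the count plus 1, labelled with the count) of protein-coding genes, one point a gene, with the 5 forkhead genes in colour. Foxp1 lies at the upper right edge with 74 peaks, Foxo1, Foxo3 and Foxp4 lie high among genes of like territory, and Foxp2 sits at 1 peak with 385 kb. The 14 genes with no territory of their own are not drawn.

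Foxp1, on the minus strand at chr6:98925338-99522721, had peaks spread along the gene. Distal peaks numbered 110 in replicate 1 and 100 in replicate 2 (105 ± 7.07, SD, n = 2). Of the 74 shared, 65 lay inside the gene, 64 of them in introns, and 9 upstream. The 6 first introns of its longest-spanning coding transcript held 9, 22, 11, 9, 4 and 4 of them, in 85.3, 127, 47.9, 97.3, 86.8 and 59.2 kb. The third of these was the densest, with 23.0 peaks per 100 kb, and the fifth the sparsest, with 4.61. Shared peaks of the gene body, promoter peaks included, were counted in windows of 50 kb moved by 10 kb. They ranged from 16, at 110 to 160 kb after the gene's first base, to 1, as at 340 to 390 kb. The longest stretch with none was 37.8 kb, from 427 to 465 kb. Hotspots, wider enriched regions of the deposited lists, covered 5.54% and 5.62% of the gene. A total of 54 of the distal shared peaks also lay in Gm20696, a gene annotated as protein-coding on the same strand. It covers the upstream part of Foxp1 and sequence upstream of its first base.

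**Figure D2:**
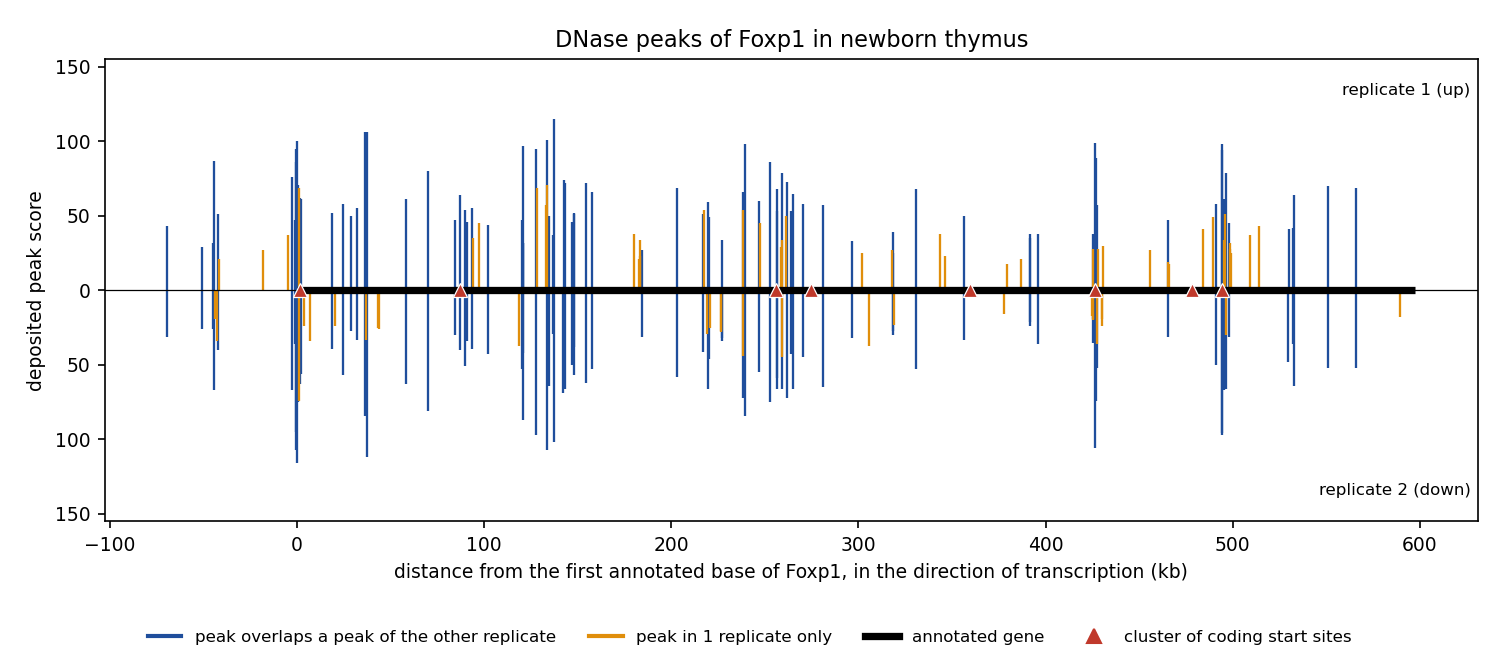
Peaks of Foxp1 by distance from its first annotated base in the direction of transcription (x axis, kb). Each line is a peak, drawn up to its deposited score for replicate 1 and down for replicate 2, blue where it overlaps a peak of the other replicate and orange where it does not; the black bar is the gene and triangles are clusters of coding start sites. Peaks are dense at 110 to 160 kb and around the open start sites, and sparse at 340 to 390 kb, with no shared peak between 427 and 465 kb.

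The 5 strongest distal shared peaks of Foxp1 were ranked by the mean percentile of their score in both lists. The first, in the second intron 50.1 kb from the nearest coding start, scored 115 and 102, higher than 94.5% and 89.4% of the peaks of each list. The second, in the first intron, scored 106 and 112. The replicates put different peaks first: in replicate 2 the third of these had the highest score. The third, at chr6:99522616-99522765, scored 100 and 116, the fourth, at chr6:99389076-99389225 in the second intron, 101 and 107, and the fifth, at chr6:99522916-99523065, 95 and 107. The third and the fifth lie 1.53 and 1.83 kb upstream of the nearest coding start, across and just before the first base of a non-coding Foxp1 transcript, so they count as distal by the coding start sites. The other distal shared peaks reached down to scores of 25 and 24, with medians over all 74 of 54.5 and 50.5. The one farthest from a coding start, at chr6:99338196-99338345, lay 71.8 kb away in an intron and scored 27 and 31. Measured by mean percentile, the median Foxp1 site stood at 58.7, beside 58.8 over all 68872 assigned distal shared peaks.

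Foxp1 has coding start sites in 8 separate clusters, joined where they lay within 1000 bp, a number reached by 32 of 21853 genes. Peaks stood at 5 of the 8 in both replicates, beside 47.7% of the 32526 clusters of coding start sites in all genes. The most upstream cluster had 4 peaks in each replicate, 3 of them shared, with best scores of 71 and 75, in a hotspot of 3105 bp in replicate 1 and 3691 bp in replicate 2. The cluster 85.8 kb downstream had 1 shared peak, with 64 and 40. The next, at 255 kb, where a principal coding transcript of the annotation starts, had 2 shared peaks, with best scores of 68 and 66. Among peaks within 1000 bp of a coding start, the strongest of Foxp1 were internal. They scored 99 and 106 at the cluster at 425 kb, and 98 and 97 at the cluster at 492 kb. The cluster at 492 kb had 6 peaks in replicate 1 and 5 in replicate 2. Peaks of 100 and 116 and of 95 and 107 lay upstream of the most upstream cluster, in its hotspot. They lay beyond 1000 bp and so counted as distal, and the scores do not rank the upstream promoter region below the internal ones. Some internal starts of Foxp1 are known to give shorter proteins that lack the amino-terminal part. No peak was called in either replicate at the clusters at 273 kb, 358 kb and 477 kb, although 5 coding transcripts start at the second of these. The nearest shared peaks were 3795 bp, 3333 bp and 13008 bp away.

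Start sites rich in CG dinucleotides had peaks more often, and Foxp1 had peaks at a pair of internal starts that are poor in them. Of 32526 clusters of coding start sites in all genes, 92.3% of those with at least 60 CG dinucleotides within 500 bp had a peak in both replicates, 84.0% of those with 40 to 59, 47.5% of those with 20 to 39 and 13.1% of those with 0 to 19. Of the open Foxp1 clusters, the first had 86, the one at 492 kb had 46 and the one at 85.8 kb had 21, whereas those at 255 and 425 kb had 13 and 19. The 3 clusters without peaks had 11, 18 and 19, and so lay in the same range of 0 to 19.

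Foxp2, on the plus strand at chr6:14901349-15441977, had almost no peak. Its distal peaks numbered 3 in replicate 1 and 2 in replicate 2 (2.50 ± 0.707, SD, n = 2), and none of its 3 start-site clusters had a promoter peak or lay in a hotspot in either replicate. The first cluster has 79 CG dinucleotides within 500 bp, so it belongs to the CpG-rich start sites of which 92.3% had a peak in both replicates. The single shared peak lay 62.3 kb upstream and scored 43 and 21, higher than 45.2% and 12.6% of the peaks of each list. It overlapped a hotspot of replicate 1 at the cap of the deposited −log10 q-value, 100, as did 64.6% of all assigned distal shared peaks. In replicate 2 its hotspot had a value of 2.85. Inside the gene each peak was called in 1 replicate alone: the strongest scored 35 in replicate 1, and the only one of replicate 2 scored 11. Hotspots covered 0.0522% of the gene in replicate 1 and 0.0198% in replicate 2, far below the shares of Foxp1. The medians over the 4986 protein-coding genes of at least 50 kb were 2.04% and 2.06%, and Foxp2 stood at percentiles 6.72 and 7.18 of these genes. Its neighbours were Ppp1r3a, with no peak of its own in these counts, and Mdfic, with 6 distal shared peaks and 4 and 3 promoter peaks.

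Foxp4, on the minus strand at chr17:47867133-47924645, is a short gene with dense open sites. Distal peaks numbered 16 in each replicate, of which 13 were shared, 10 of them in its first 3 introns. Hotspots covered 11.0% and 12.9% of the gene, percentiles 98.3 and 98.7 of genes of at least 50 kb, the highest share of the 5 genes in both replicates. The strongest distal shared peak, in an intron 36.6 kb from the nearest start, scored 113 and 99, and a second, at chr17:47909376-47909525 in the first intron, 102 and 91. The third, at chr17:47888156-47888305, scored 72 and 83, lower by more in replicate 1 than in replicate 2. The farthest, at chr17:47974136-47974285, lay 49.6 kb upstream and scored 32 and 44. At the single start-site cluster the peak 126 bp upstream scored 121 in both replicates. Its flanks differed: of 5 promoter peaks in replicate 1 and 4 in replicate 2, 2 were shared, and replicate 2 had a hotspot of 2823 bp there where replicate 1 had one of 971 bp. The body of Foxp4 also held 2 distal shared peaks assigned to Mdfi, whose start site is nearer.

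Foxo1, on the plus strand at chr3:52268336-52353221, had distal peaks on both sides of its start. They numbered 37 and 32 (34.5 ± 3.54, SD, n = 2), and of the 24 shared, 12 lay in the first intron, of 75.6 kb, and 12 upstream. The promoter peak over the start scored 119 and 128. Replicate 2 alone had a further promoter peak, 425 bp upstream, with a score of 91, inside a hotspot of replicate 1. The strongest distal shared peak, 5.73 kb upstream, scored 98 and 83. The second, at chr3:52323136-52323285 in the intron, scored 96 and 79, and the third, at chr3:52299516-52299665, 86 and 83. None of these 3 had a mean percentile of 90 or more. The farthest, at chr3:52187056-52187205, lay 81.2 kb upstream and scored 24 and 27. Of the upstream sites, 6 lay in the long non-coding RNA gene Gm37202, and with the start sites of all genes counted Foxo1 kept 3 of its 24 peaks.

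The limit of 100 kb leaves out much open chromatin beyond the end of Foxo1. In the interval towards Cog6, whose start site is 749 kb from that of Foxo1, 35 further shared peaks lay 101 to 373 kb downstream of the Foxo1 start, with no nearer coding start. Their median scores were 61 and 56, like the 62 and 59.5 of the 24 assigned peaks. The strongest of them, named after its value was seen, at chr3:52523016-52523165 and 255 kb from the start, scored 133 and 127, above every assigned distal peak of Foxo1. By the count of such peaks beyond the limit Foxo1 ranked 20 among 2000 genes with any. Foxp1 had 4 and the other 3 genes none.

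Foxo3, on the minus strand at chr10:42181841-42276755, had the highest scores of the 5 genes. The promoter peak scored 135 and 137, above 99.3% and 98.5% of the peaks of each list. The strongest distal shared peak, with its midpoint 1016 bp upstream and so just outside the promoter limit, scored 141 and 144, and the second, at chr10:42278116-42278265 and 1.44 kb upstream, 131 and 133. The third, at chr10:42269296-42269445, lay in an intron 7.33 kb from the nearest start and scored 128 and 133. These 4 sites scored above every other peak assigned to the 5 genes in both replicates. The promoter and the upstream pair lay in a single hotspot of 3227 bp in replicate 1 and 5084 bp in replicate 2. Distal peaks numbered 35 and 26 (30.5 ± 6.36, SD, n = 2), the widest relative spread of the genes other than Foxp2, and 22 of the 35 were shared. The second intron, of 76.9 kb, held 10 of them. The farthest, at chr10:42174056-42174205, lay beyond the end of the gene and scored 61 and 46. Its distance of 84.2 kb is to the nearest coding start, a second one 18.4 kb inside the gene with 22 CG dinucleotides, which had no peak of its own in either replicate.

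**Figure D3:**
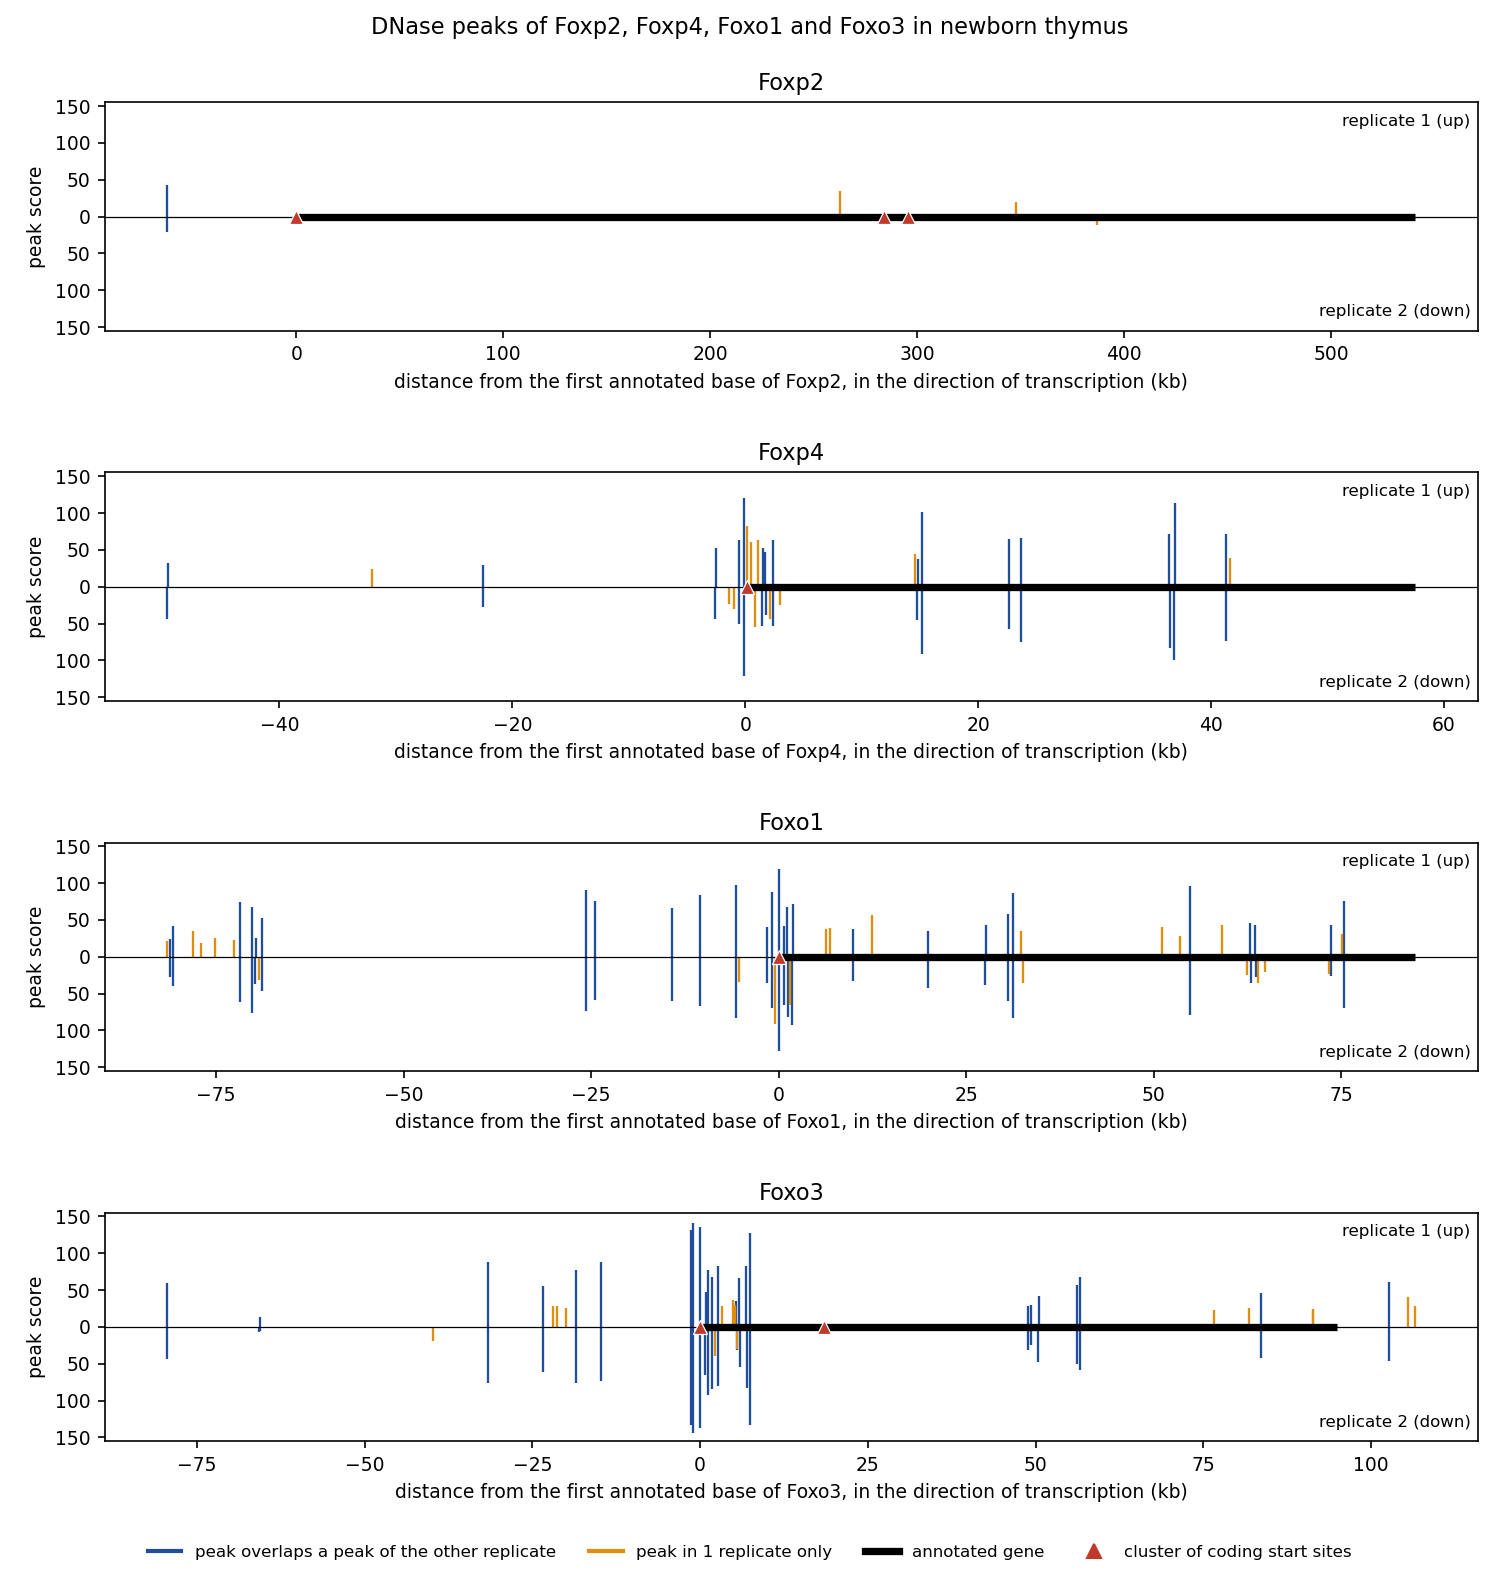
Peaks of Foxp2, Foxp4, Foxo1 and Foxo3 by distance from each gene's first annotated base in the direction of transcription (x axes, kb, which differ between panels). Lines are peaks, up to the deposited score in replicate 1 and down in replicate 2, blue if shared and orange if not, with genes as black bars and coding start-site clusters as triangles. Foxp2 shows 1 shared peak, upstream, while Foxp4, Foxo1 and Foxo3 have their strongest promoter peaks, with scores from 119 to 137, at the first start.

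The promoter limit of 1000 bp passes between peaks of these genes. On its inner side, Foxp1 had a peak at 969 bp with 71 and 75 and one at 966 bp with 28 in replicate 1 and no counterpart, and Foxo1 had one at 925 bp with 88 and 69. On its outer side lay the Foxo3 peak at 1016 bp with 141 and 144, a Foxo1 peak at 1115 bp with 67 and 82, a Foxo3 peak at 1125 bp with 77 and 93 and a Foxp1 peak at 1166 bp with 38 and 35. With a window of 2500 bp the promoter shared peaks rose from 2 to 6 for Foxo3, from 3 to 6 for Foxo1 and from 2 to 5 for Foxp4.

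The replicates held these sites about as often as they held distal peaks at large. Of the distal peaks of the 5 genes, 66.7% of 201 in replicate 1 and 76.7% of 176 in replicate 2 overlapped a peak of the other replicate (71.7% ± 7.10, SD, n = 2), beside 66.6% and 73.4% of all distal peaks. Sharing followed the score, as it did over all distal peaks. At or below the median score of all distal peaks it was 39.1% and 50.7%, beside 40.6% and 51.4% of all distal peaks. Above that median it was 89.9% and 95.1%, beside 93.6% and 95.6%. The 67 unshared peaks of replicate 1 had a median score of 30, beside 27 over all unshared distal peaks, and 12 of the 67 overlapped a hotspot of replicate 2. In replicate 2, 41 were unshared, with a median of 26, beside 22 over all unshared distal peaks. Of these 41, 8 overlapped a hotspot of replicate 1. The hotspot overlaps were not set beside those of all unshared distal peaks. The strongest unshared distal peak of Foxp1 scored 71 in replicate 1 and 45 in replicate 2, and both lay in a hotspot of the other replicate. For Foxo1 these were 57 and 65, for Foxp4 44 and 44, for Foxo3 41 and 40, and for Foxp2 35 and 11.

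**Figure D4:**
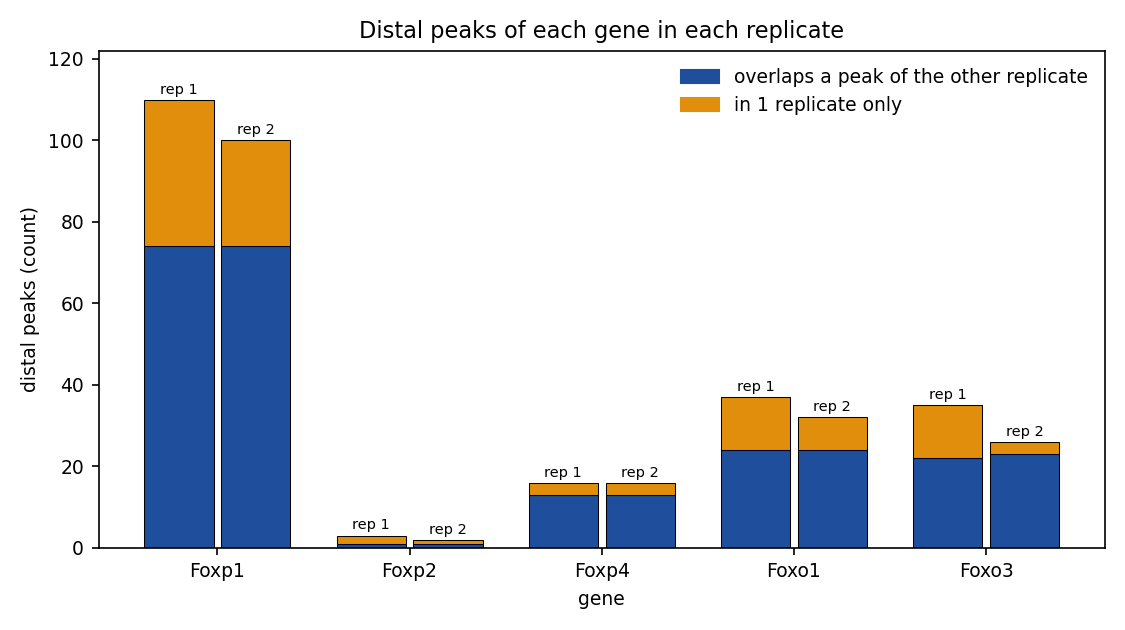
Distal peaks (y axis, count) of each gene in replicate 1 (left bar) and replicate 2 (right bar), split into peaks that overlap a peak of the other replicate and peaks in 1 replicate only. The order from Foxp1 to Foxp2 is the same in both replicates, and Foxo1 and Foxo3 stand close together, with 37 and 35 peaks in replicate 1.

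Scores of the same site were close in the replicates. Over the 126 distal pairs that overlapped 1 to 1, Pearson's r was 0.921 and Spearman's rho 0.909. These are descriptions across sites of the same 2 libraries, which share cells of 1 tissue and, where sites are neighbours, wider enriched regions. Within genes, rho ran from 0.821 for Foxo1 (24 pairs) to 0.948 for Foxp4 (13 pairs). In 94 of the 126 pairs, the percentiles of the 2 scores lay within 10 points of each other.

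**Figure D5:**
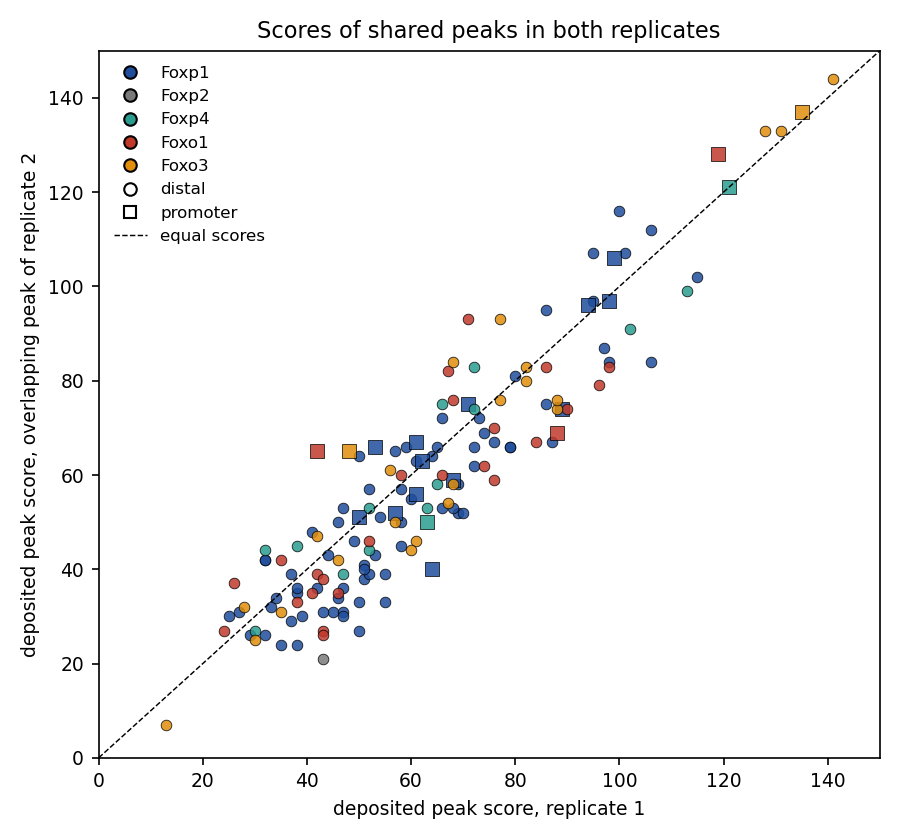
Deposited scores of shared peaks in replicate 1 (x axis) and of the overlapping peak of replicate 2 (y axis), in colours by gene, with circles for distal and squares for promoter peaks and a dashed line at equal scores. Points follow the line, with 4 Foxo3 sites at the top right and the single Foxp2 site low, at 43 and 21.

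Word counts in the distal shared peaks were set beside the other 78585 distal shared peaks. The RUNX word, recognised by factors that direct T cell development, was in 25 of 74 Foxp1 peaks (33.8%), beside 21.1%, in 4 of 24 Foxo1 peaks, in 3 of 22 Foxo3 peaks, in 0 of 13 Foxp4 peaks and not in the Foxp2 peak. The 74 Foxp1 peaks make 72 distinct sites where overlapping peaks are joined, and both peaks of an overlapping pair held this word. Over the 134 peaks of the 5 genes the RUNX word was in 23.9%. The ETS words were in 29.1% of the 134 beside 35.3% of the others, CAGCTG in 18.7% beside 16.0%, CACCTG in 23.1% beside 21.8% and the TCF/LEF words in 12.7% beside 11.9%. All of these were nearer to the other distal peaks than to windows of equal width, 1000 bp to either side and free of peaks, where the shares were 11.7% for RUNX, 19.3% for ETS, 7.01% for CAGCTG, 10.9% for CACCTG and 8.99% for TCF/LEF. The NFAT word was in 7 of 134 (5.22%), beside 10.6% of the other distal shared peaks and 13.3% of the windows free of peaks. The CTCF core was in 3 (2.24%), beside 8.0% of the other distal shared peaks and 0.0399% of the windows free of peaks. None of the 74 Foxp1 peaks held the CTCF core, and the single Foxp2 peak did. The GATA word was in 5 of 134 (3.73%), beside 6.24% of the other distal shared peaks and 8.03% of the windows free of peaks. AP-1 words were in 8 of 134 (5.97%), beside 5.51% of the others and 4.22% of the windows free of peaks. By gene they were in 5 of 24 Foxo1, 2 of 74 Foxp1 and 1 of 13 Foxp4 peaks, and in no Foxo3 or Foxp2 peak. None of these shares was tested, since the sites were chosen with the data known.

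The genes most like Foxp1 and Foxo1 were found over territory, distal shared count, share inside the gene and promoter shared peaks, each scaled by its SD over the 1860 genes with at least 10 distal shared peaks. Nearest to Foxp1 were Sept9, Pde4d, Bcor, Rreb1 and Pitpnm2, with 56, 53, 49, 43 and 38 distal shared peaks, at distances of 1.93 to 3.66. Nearest to Foxo1 were Actn1, Tox2, Parp11, Eml4 and D16Ertd472e, with 21 to 25, at 0.290 to 0.467. All 5 nearest to Foxo1 were thus closer to it than any gene was to Foxp1. Since Foxp1 was chosen on its distal shared count, which is among these measures, its larger distances partly describe that choice.

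Foxp1 was chosen on its count of distal shared peaks, so the lower counts of the other forkhead genes describe that choice. Per 100 kb of territory the 39 other genes ranged from 0 to 54.3 (Foxh1, with 5.52 kb), beside 11.1 for Foxp1. Both replicates had a promoter peak at 21 of 39 (53.8%, beside 62.2% of all genes). The median was 3 distal shared peaks, beside 1 over all genes, and 3 of the 39 had none. The 5 with the most were Foxn3 with 38, Foxb1 with 21, Foxf1 with 18, Foxk1 with 11 and Foxn2 with 8. Of the remaining Foxp and Foxo genes, Foxp3, which defines regulatory T cells, had 1 distal shared peak and 3 promoter peaks in each replicate, Foxo4 had 1 and 4 in each, and Foxo6 had 3, with 2 and 1 promoter peaks.

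The promoters of the listed FOXO pathway genes were open. All 9 genes listed as upstream of FOXO factors and all 25 listed targets had promoter peaks in each replicate, beside 62.2% of all genes. The median over the 34 was 11.5 distal shared peaks. The upstream list includes Pdk1, the symbol of a pyruvate dehydrogenase kinase gene and not of the kinase that activates AKT. Its counts therefore include a gene that is not an upstream regulator. The 5 with the most were Tcf7, a T lineage transcription factor gene, with 36, Trib1, a pseudokinase gene, with 31, Bcl2l11, which encodes the pro-apoptotic protein BIM, with 31, Pik3r1, a regulatory subunit of PI3K, with 25, and Sgk1, a kinase gene related to Akt1, with 24. The promoters of all 14 listed partners of FOXP factors were also open in both, with a median of 5 distal shared peaks. The lists hold known T cell genes, and were drawn up with results of these data known.

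The coding genes on either side set the territories. Foxp1 lies between Eif4e3, 146 kb upstream by start sites and with 20 distal shared peaks, and Gm765, 685 kb downstream with 2. Foxo1 lies next to Maml3, with 48 upstream, and Cog6, with 18. Foxo3 lies between Afg1l, with 1, and Armc2, with 16, and Foxp4 between 1700122O11Rik, with 13, and Mdfi, with 5. No other coding gene starts between the start sites of any of the 5 genes.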

How the data were processed

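The genes, the gene lists and the words searched were chosen with earlier results of these data known. The authors deposited, per library, peaks with a score and hotspots with a −log10 of a q-value, on mm10 per the labels. Replicates were not pooled, according to the notes deposited beside the lists. The deposited score has a maximum of 150 and the −log10 q-value a cap of 100. Peaks at these limits cannot be ranked further. Which aligner and callers were used, with which thresholds and on how many reads, is not given in the sources used here. Chromosome lengths were those of GRCm38, and no peak on the main chromosomes lay beyond its lengths. Annotation was GENCODE M21, with 54361 coding start sites. Sequences were read from the RefSeq copy of GRCm38. Of the 5 genes, 4 had an entry in the table of RefSeq promoters, which was not printed. Percentiles are the share of a list with a lower score. No test was run. Most named peaks and genes follow a fixed rule. For peaks it takes the promoter peaks, the 5 strongest distal shared peaks of Foxp1 and the 3 strongest of each other gene. It adds the farthest of each gene and the strongest unshared peak. For genes it takes the neighbouring coding genes, the 5 most like Foxp1 and Foxo1 and the 5 with the most distal shared peaks of each list. The remaining Foxp and Foxo genes and the Foxo1 peak beyond the limit were added after their values were seen. The distal peaks named near the promoter limit, Foxn1 and Foxh1 are also outside this rule. Distal shared counts were recomputed with the stronger 50% of peaks, with 50% reciprocal overlap, with lists of equal length, with hotspots, with 2500 bp for promoters, with all genes' start sites, within 50 kb, by gene body and from either replicate. Promoter counts were recomputed with 2500 bp, the stronger 50% and either replicate, sharing with 50% reciprocal overlap, hotspots and the stronger 50%, lists with the stronger 50%, and words against windows without peaks. Counts of introns, windows, clusters and peaks beyond the limit have no alternative. Overlap, assignment, territory and word search were checked on simulated data. Python 3.11.15, numpy 2.4.6, pandas 2.3.3, pysam 0.24.0 and matplotlib 3.10.9 were used.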

Additional observations from a re-analysis of the deposited data

How the results depend on the processing

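Foxp1 kept the highest count of the 5 genes and Foxp2 the lowest in every alternative run. With the stronger 50% of peaks the distal shared counts were 41 for Foxp1, 14 for Foxo1 and 0 for Foxp2. With the start sites of all genes they were 42 for Foxp1, 8 for Foxp4 and 3 for Foxo1. Which start sites took the peaks was not tested. With a limit of 50 kb Foxo1 had 13 and Foxp2 0, and by gene body Foxo1 had 12, Foxo3 13 and Foxp2 0. In the list of each replicate alone the counts were 100 to 110 for Foxp1, 2 to 3 for Foxp2, 16 for Foxp4, 32 to 37 for Foxo1 and 26 to 35 for Foxo3. The share of distal peaks found in the other replicate was 63.7% with a reciprocal overlap of 50%, 83.6% with the stronger 50% of peaks, and 66.7% to 76.7% by replicate. The share was 76.7% with a hotspot of the other replicate. Distal counts not named for a setting stayed within 1.5 times the reported count. These include the counts with overlapping peaks of a list joined, an alternative chosen after the data were seen. Under each promoter alternative 4 of the 5 genes had a promoter peak. Relative to windows without peaks, in place of the other distal shared peaks, the ratio went from 0.824 to 1.51 for ETS, from 1.13 to 2.04 for RUNX, from 1.16 to 2.66 for CAGCTG, from 1.06 to 2.12 for CACCTG and from 0.280 to 56.0 for the CTCF core. ETS and CTCF changed sides of 1. The unknown depth, the peak width fixed at 150 bp and n = 2 limit all counts, and a missing peak does not show closed chromatin.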
